A study of Mus musculus with 16 samples.

Results

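Potassium channel genes were followed over the cerebellum of WT and Atm-/- mice with and without nicotinamide riboside. They were defined as the genes whose symbol starts with Kcn and a further letter, which takes in the pore-forming subunits and most of their auxiliary subunits. The Kcnip genes and antisense transcripts were set aside, which left out 8 genes. Of the 22911 named genes of the array, 90 were potassium channel genes, covered by 141 probes. A total of 68 of the 90 had a probe that passed the filters on dim probes and on outlier spots, out of 16737 named genes that did. Only these could be tested.

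Potassium channels let potassium leave or enter the cell and so set the resting potential of neurons and glia, end the action potential and shape firing patterns. Voltage-gated channels (Kv) open on depolarisation, calcium- and sodium-activated channels couple firing to ion entry, inward rectifiers and leak channels hold the membrane near rest, and auxiliary subunits tune where and how fast the pores work. In the cerebellum, Kv1 channels sit at the axon terminals of basket cells, Kv3 and large-conductance BK channels support the fast firing of Purkinje cells, and Kv4 channels are abundant in granule cells.

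RNA was hybridised to 16 Agilent arrays of 1 colour, with 4 WT mice on water (WT veh), 4 WT mice on NR (WT NR) and the same 2 arms of 4 Atm-/- mice (Atm-/- veh and Atm-/- NR). Atm-/- mice were homozygous for the targeted allele Atmtm1Bal on a mixed B6;129S4 background and so lack the kinase ATM in all cells, and WT mice were their littermates. Nicotinamide riboside (NR) is a vitamin from which cells make NAD, and NR mice drank it at 3.5 mg/ml (12 mM) for 2 months from 6 weeks of age while veh mice had water alone. The tissue was taken at 3.5 months. The labels describe each array as 1 male mouse, and the dissected piece as cerebellar cortex.

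Several features of the arrays bear on what follows. One of the 2 kept probes for Atm ran from 8.52 to 9.03 (log2 signal) on the WT arrays and from 7.72 to 8.08 on the Atm-/- arrays, while the ranges of the other overlapped. One slide held every WT array and a second slide every Atm-/- array, which means that effects of slide and of genotype cannot be told apart. Within a slide the veh arrays filled one row and the NR arrays the other, and NR and array row cannot be told apart either. On 4 arrays labelled male, 2 of them WT NR (replicates 1 and 4) and the others Atm-/- veh 3 as well as Atm-/- NR 4, no Y-linked gene gave signal, and the results are therefore also given for the other 12. Between 34945 and 42559 probes per array were well above background, and every Atm-/- NR array (34945 to 37817) had fewer than every Atm-/- veh array (39134 to 41905). The part of this difference in the results was not tested. All 9 Purkinje cell and all 9 granule cell markers were measured. WT veh 4 stood apart: markers of the choroid plexus lay on average 4.02 above their mean over 16 arrays (log2) there and forebrain markers 2.87 above. On Atm-/- veh 3 the 2 measured of 3 blood markers (Hbb-bs was not) lay 2.23 above, and between -0.69 and 0.30 on the other 15.

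The promoters of called genes are shown first because these genes carry the results for NR below. RefSeq promoters on build GRCm38.p6, running from 250 bases before to 50 bases after the start of the gene, were at hand for 3 of the 5 potassium channel genes that passed the test for NR in Atm-/- mice. They are Kcna2 (chr3:107101317-107101616, plus strand), Kcnj2 (chr11:111065914-111066213, plus strand) and Kcnk13 (chr12:99964249-99964548, plus strand). Kcna1 and Kcnt1 had none in the table. Capitals mark matches on either strand to any of the motifs searched, and no match overlaps another in these 3 windows. The GC box, bound by factors such as Sp1, was searched as GGGCGG. The CCAAT box, named by its own letters, is bound by the factor NF-Y. The TATA box, where the basal machinery can assemble, was searched as TATAAA. The CRE, the element bound by CREB, was searched as TGACGTCA.
Kcna2: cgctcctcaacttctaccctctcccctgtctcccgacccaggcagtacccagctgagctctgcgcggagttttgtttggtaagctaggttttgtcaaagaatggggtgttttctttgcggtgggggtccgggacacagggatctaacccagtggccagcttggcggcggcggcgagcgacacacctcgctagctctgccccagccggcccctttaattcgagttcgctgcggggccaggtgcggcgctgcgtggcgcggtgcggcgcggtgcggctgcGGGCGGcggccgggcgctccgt
Kcnj2: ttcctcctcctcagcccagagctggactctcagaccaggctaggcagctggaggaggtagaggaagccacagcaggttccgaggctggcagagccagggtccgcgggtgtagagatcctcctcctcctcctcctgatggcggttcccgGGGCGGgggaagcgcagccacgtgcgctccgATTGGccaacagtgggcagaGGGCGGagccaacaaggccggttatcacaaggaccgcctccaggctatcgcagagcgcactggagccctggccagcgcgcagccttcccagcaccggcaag
Kcnk13: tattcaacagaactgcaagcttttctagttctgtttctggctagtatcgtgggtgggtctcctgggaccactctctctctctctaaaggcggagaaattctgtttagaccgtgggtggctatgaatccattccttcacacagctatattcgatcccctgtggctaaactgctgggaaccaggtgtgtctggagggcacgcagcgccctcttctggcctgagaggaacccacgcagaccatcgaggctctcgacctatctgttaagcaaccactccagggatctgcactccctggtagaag

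The GC content was 66.7% in the Kcna2 window, 66.7% in that of Kcnj2 and 52.7% in that of Kcnk13, with 31, 18 and 9 CpG dinucleotides. The Kcna2 window held 1 GC box. The Kcnj2 window held 2 GC boxes and 1 CCAAT box, and none of the 4 motifs was found in the Kcnk13 window. Over the potassium channel genes, 65 of 90 had a promoter in the table, with 85 promoters in all. A GC box was found in 48.2% of these 85 and in 35.7% of all 32851 promoters. A CCAAT box was found in 27.1% against 37.4%, a TATA box in 5.88% against 13.6%, and a CRE in 0 against 1.79%. The median GC content was 57.7% in the promoters of potassium channel genes and 52.7% in all promoters. A match describes the letters only.

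Most potassium channel genes were well measured in this tissue. Of the 68, 62 had a kept probe above background on all 16 arrays. The number of potassium channel genes above background on an array ran from 75 to 81 in WT veh, 71 to 83 in WT NR, 75 to 78 in Atm-/- veh and 67 to 76 in Atm-/- NR. The measured genes comprised 6 of 8 Kv1 pore subunits (Kcna), 3 of 3 Kv beta subunits (Kcnab), 2 of 2 Kv2 (Kcnb), 4 of 4 Kv3 (Kcnc) and 3 of 3 Kv4 (Kcnd). They further held 3 of 5 Kv7 (Kcnq), 5 of 8 of the EAG family (Kcnh), 6 of 10 silent modifiers (Kcnf, Kcng, Kcns, Kcnv), which form no channel on their own, and 4 of 5 single-pass beta subunits (Kcne). Among the other families, 12 of 15 inward rectifiers (Kcnj), 10 of 14 leak channels (Kcnk), 3 of 4 of the Slo family (Kcnma, Kcnt, Kcnu), 2 of 4 BK beta subunits (Kcnmb), 4 of 4 calcium-activated channels of small and intermediate conductance (Kcnn) and Kcnrg were measured. Kcna3, Kcna5, Kcne3, Kcnf1, Kcng1, Kcng3, Kcnh5, Kcnh7, Kcnh8, Kcnj1, Kcnj5, Kcnj6, Kcnk5, Kcnk7, Kcnk9, Kcnk18, Kcnmb1, Kcnmb3, Kcnq5, Kcnt2 and Kcnv1 were among the 22 genes with no kept probe, although 19 of the 22 were above background on at least 1 array. Of these, Kcna3, Kcnj6, Kcnk5 and Kcnq5 were above background on every array of some group and were dropped for outlier spots, not for dim signal.

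Levels of channels known from cerebellar neurons and glia are given first. Kcnd2 (Kv4.2, which carries the A-type current of granule cells) had mean log2 signals of 15.25 ± 0.35, 15.44 ± 0.13, 15.21 ± 0.07 and 15.46 ± 0.14 (SD, n = 4), the first pair being WT veh and WT NR and the second pair their Atm-/- counterparts. Kcnc1 (Kv3.1, a fast delayed rectifier) had 14.65 ± 0.21, 14.60 ± 0.17, 14.66 ± 0.16 and 14.54 ± 0.13 in the same order. Kcnj10 (Kir4.1, the main inward rectifier of astrocytes and Bergmann glia) had 15.05 ± 0.34, 15.14 ± 0.11, 14.94 ± 0.16 and 14.82 ± 0.07.

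None of these 3 genes passed the test in any comparison, and the same held for Kcnd3 (Kv4.3), Kcnmb4 (the neuronal BK beta subunit), Kcnj3 and Kcnj9 (subunits of G protein-gated rectifiers), Kcnq3 (an M-current channel), Kcnk1 and Kcnk3 (leak channels) and Kcnab2 (a Kv beta subunit). Ranges over the 16 arrays were 13.85 to 14.51 for Kcnd3, 15.05 to 15.57 for Kcnmb4, 10.77 to 11.06 for Kcnj3 and 12.10 to 12.96 for Kcnk3. Kcnj9, Kcnk1, Kcnab2 and Kcnq3 varied more, spanning 1.29, 1.38, 1.65 and 2.11 between their lowest and highest arrays. Signals of different probes are not comparable as levels, so no order between these genes was drawn.

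The loss of Atm was asked about first, in mice without NR. No potassium channel gene passed the test between Atm-/- veh and WT veh (limma, Benjamini-Hochberg adjusted p under 0.05 over all 37253 probes tested), where 0.0538% of the 16737 genes did. At an unadjusted p under 0.05, 11 of 68 potassium channel genes (16.2%) differed, close to the 16.8% of all genes. Their median change was -0.07 (log2, Atm-/- veh minus WT veh) beside -0.03 over all genes. Of the 68, 27 were higher and 41 lower (39.7% higher, beside 44.6% of all genes). The groups of 4 arrays did not overlap for 4 of the 68 (5.88%), beside 8.74% of all genes. These were Kcna7 (Kv1.7, difference 0.24, adjusted p = 0.270), Kcnb2, Kcnh6 and Kcnk1.

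Kcnb2 (Kv2.2, a delayed rectifier) had log2 signals of 6.61, 5.55, 5.60 and 6.86 on the WT veh arrays and 5.51, 5.38, 4.70 and 5.03 on the Atm-/- veh arrays. Every Atm-/- veh value lay below every WT veh value, and the difference was -1.003 (SE 0.29, adjusted p = 0.207). Kcnh6 (Kv11.2, of the EAG family) went the other way.

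It read 7.62, 7.82, 7.68 and 7.78 in WT veh and 8.82, 8.43, 8.79 and 8.11 in Atm-/- veh, without overlap and with a difference of 0.81 (SE 0.28, adjusted p = 0.243). Kcnk1 (TWIK-1, a weak leak channel) read 12.84, 13.86, 13.89 and 13.82 in WT veh and 14.10, 13.98, 14.07 and 14.21 in Atm-/- veh, a difference of 0.49 (SE 0.20, adjusted p = 0.288). WT veh 1 was the low array for Kcnk1, and without it the difference was 0.23. None of these differences passed the test.

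Under NR the genotypes were compared again. Again no potassium channel gene passed between Atm-/- NR and WT NR, where 0.0597% of all genes did, and 4 of 68 (5.88%) had an unadjusted limma p under 0.05 beside 4.34% of all genes. The median change was -0.01 beside 0.01 over all genes. The largest rises by value were those of Kcnk15 (0.62, adjusted p = 0.989), a leak channel subunit not known to conduct alone, and Kcnh6 (0.50, adjusted p = 1). The largest falls by value were those of Kcne2 (-1.19) and Kcnc2 (-0.65), genes with a wide spread between arrays that are described further on. Averaged over both treatments, the genotype difference was called for 0 of 68 potassium channel genes and 0.221% of all genes, with 12 (17.6%) and 13.1% at an unadjusted limma p under 0.05.

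In WT mice, NR was followed by no call. Between WT NR and WT veh, 0 of 68 potassium channel genes and 0 of 16737 genes passed the test (0%), with 6 (8.82%) and 8.84% at an unadjusted limma p under 0.05. The median change was 0.04 in the potassium channel genes beside -0.01 over all genes. Of the 68, 41 were higher and 27 lower (60.3% higher, beside 48.5% of all genes). The groups did not overlap for 2 of the 68 (2.94%), beside 4.58% of all genes.

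In Atm-/- mice, 5 potassium channel genes differed between NR and veh. Kcna1, Kcnj2 and Kcnk13 rose, and Kcna2 and Kcnt1 fell. The 5 of 68 are 7.35%, beside 11.5% of all genes, so calls were not more frequent here than elsewhere on the array. By direction, 4.41% of the 68 rose beside 6.67% of all genes, and 2.94% fell beside 4.8%. At an unadjusted p under 0.05 the shares were 25% (17 genes) and 30.5%, and the groups did not overlap for 13 potassium channel genes (19.1%) beside 26.3% of all genes. Of the 104 kept probes of the potassium channel genes, 6 were called (5.77%), beside 9.04% of all 37253 probes. With scaling to the 75th percentile in place of quantile normalization, 5 potassium channel genes rose and 1 fell (beside 13.5% of all genes called), with Kcnab1 and Kcnn2 added and Kcnt1 lost. The Atm-/- NR arrays are those with fewer probes above background, as given above.

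**Figure D1:**
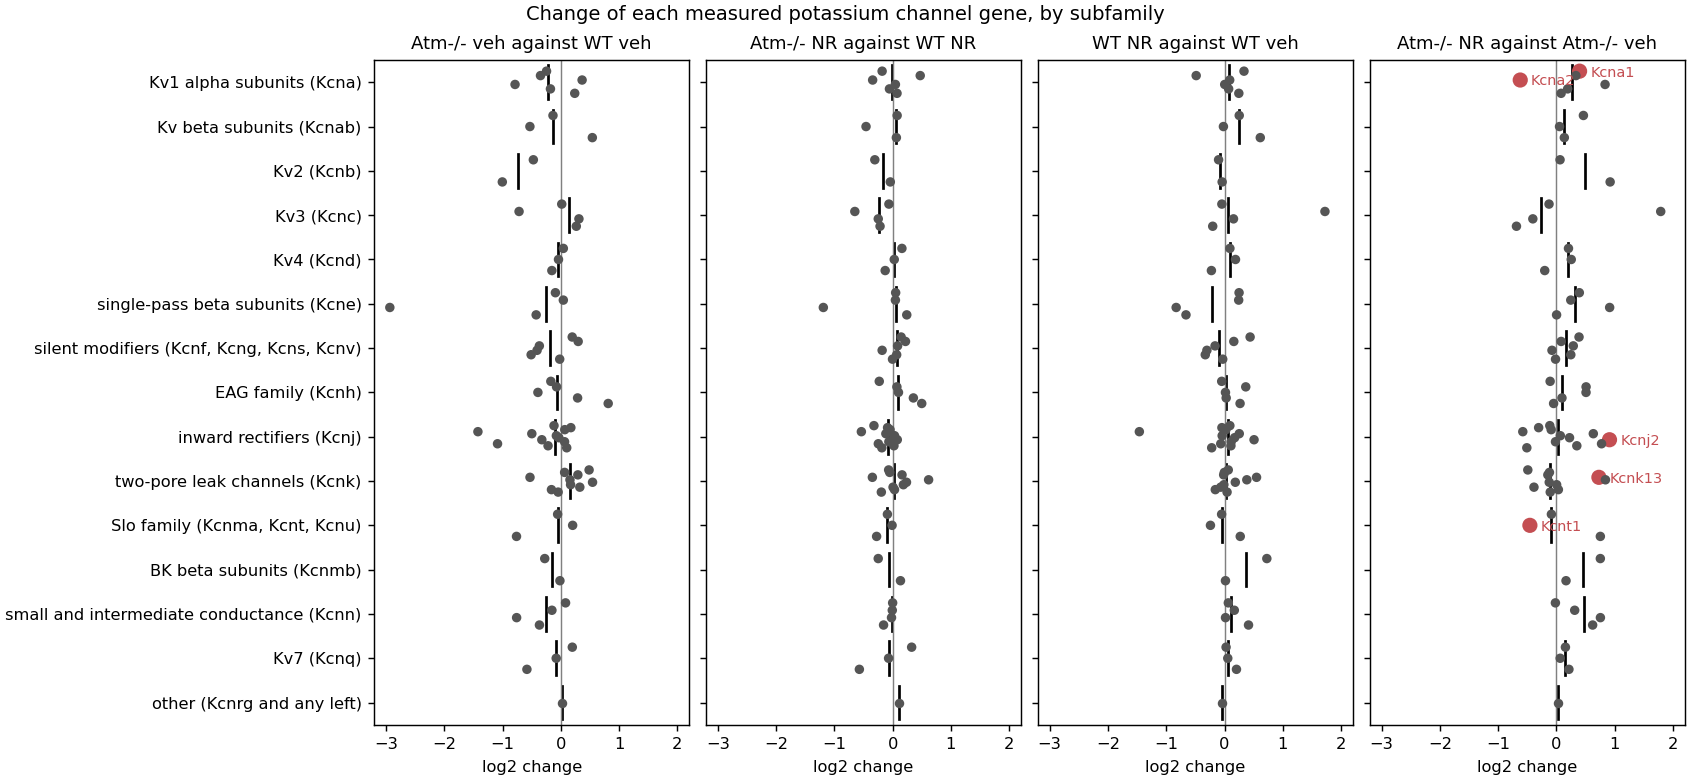
Change of each of the 68 measured potassium channel genes (brightest probe, log2 scale, horizontal axis) by subfamily (vertical axis) in the 4 simple comparisons; points are genes, black bars are subfamily medians, and large red points passed the test. Red points are present only in Atm-/- NR against Atm-/- veh, where Kcna1, Kcnj2 and Kcnk13 lie right of 0 and Kcna2 and Kcnt1 left of it.

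The Kv1 subunits held both a rise and a fall. Kcna1 (Kv1.1, mutated in episodic ataxia) and Kcna2 (Kv1.2) form mixed channels that hold down excitability at axons and terminals. Kcna1 had log2 signals of 14.89, 15.05, 15.12 and 14.89 on the Atm-/- veh arrays and 15.28, 15.33, 15.45 and 15.48 on the Atm-/- NR arrays.

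All 4 NR arrays lay above all 4 veh arrays. The rise was 0.40 (SE 0.11, 95% interval 0.16 to 0.63, 1.32-fold, adjusted p = 0.0383). In WT mice the values were 15.14, 15.25, 15.55 and 14.98 with veh and 15.46, 15.60, 15.54 and 15.67 with NR, which overlap, and the difference was 0.33 (adjusted p = 0.540).

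Kcna2 read 12.10, 11.64, 11.64 and 11.82 in Atm-/- veh and 11.14, 11.22, 11.19 and 11.17 in Atm-/- NR. The NR arrays lay within 0.1 of each other and all below the veh arrays. The fall was -0.62 (SE 0.13, 95% interval -0.89 to -0.35, 1.54-fold, adjusted p = 0.0139), the lowest adjusted p among the potassium channel genes in this comparison. WT mice read 11.67, 11.25, 11.49 and 11.32 with veh and 11.76, 11.37, 11.33 and 11.63 with NR, a difference of 0.09 (adjusted p = 0.920). The NR change of Kcna2 in Atm-/- mice minus that in WT mice was -0.71 (SE 0.18) and did not pass (limma adjusted p = 0.839). For this test of the difference, 0 of 68 potassium channel genes and 0% of all genes were called, with 3 (4.41%) and 5.96% at an unadjusted limma p under 0.05.

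The other 4 measured Kv1 genes did not pass. Kv1 as a group had 5 of 6 members higher in Atm-/- NR with a median change of 0.26, beside 0.04 over all genes. In this comparison 54.9% of all genes and 64.7% of the 68 potassium channel genes were higher. Kcna10, among these 5, was above background on only 2 of the 4 Atm-/- NR arrays. Kcna6, also among them, was higher on its brightest probe, with means of 14.78 in Atm-/- veh and 14.98 in Atm-/- NR. Its dimmer probe went the other way (7.70 and 7.24). Kcna4, another of the 5, varied widely between arrays and is described further on. Kcnab1 (a beta subunit that binds Kv1 channels) read 14.51, 14.34, 14.68 and 14.58 in Atm-/- veh and 15.04, 14.98, 14.97 and 14.98 in Atm-/- NR. The groups did not overlap, and the difference of 0.46 just missed the threshold (adjusted p = 0.0570).

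Among the inward rectifiers, 6 of 12 were higher and 6 lower in Atm-/- NR, with a median of 0.03. Kcnj2 (Kir2.1, which anchors the resting potential) was the member called. It read 9.85, 10.17, 10.18 and 10.14 in Atm-/- veh and 10.82, 11.23, 11.21 and 10.72 in Atm-/- NR, without overlap. The rise was 0.91 (SE 0.22, 95% interval 0.44 to 1.38, 1.88-fold, adjusted p = 0.0233), the largest among the genes called. In WT mice it read 10.19, 10.02, 10.57 and 10.84 with veh and 10.56, 11.27, 11.32 and 10.51 with NR, which overlap (difference 0.51, adjusted p = 0.626). The NR arrays with the highest Kcnj2 were replicates 2 and 3 of both genotypes. These also had the highest Slc17a6, a marker of brainstem and deep nuclei (12.47 and 12.75 in WT NR, 12.41 and 12.19 in Atm-/- NR). Slc17a6 was picked after its values were seen, and the other measured markers of its list varied far less, as given below. With the level of that marker list added to the model, an alternative chosen after seeing the data, the Kcnj2 rise was 0.71 (adjusted p = 0.0760).

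The leak channels had 4 of 10 higher and 6 lower, with a median of -0.11. Kcnk13 (THIK-1, a leak channel known from microglia) read 10.36, 10.61, 10.13 and 10.33 in Atm-/- veh and 11.08, 11.21, 11.08 and 10.98 in Atm-/- NR. The groups lay apart, and the rise was 0.73 (SE 0.20, 95% interval 0.29 to 1.17, 1.66-fold, adjusted p = 0.0404). In WT mice it read 11.27, 10.74, 10.30 and 11.23 with veh and 11.09, 11.34, 11.42 and 11.89 with NR, a difference of 0.55 (adjusted p = 0.576). Of 8 microglial marker genes 7 were measured (P2ry12 was not), and 0 of these were called in Atm-/- NR against Atm-/- veh, 5 being higher and 2 lower with a median of 0.17. The mean of the list, relative to its mean over all arrays, ran from -0.26 to 0.34 in Atm-/- veh and from -0.23 to 0.08 in Atm-/- NR. In a bulk sample, a change in the number of cells of a type and a change in RNA per cell cannot be told apart.

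In the Slo family, Kcnt1 (Slack, a sodium-activated channel) read 13.85, 13.81, 14.003 and 13.79 in Atm-/- veh and 13.56, 13.30, 13.29 and 13.50 in Atm-/- NR. Every NR array was below every veh array. The fall was -0.45 (SE 0.13, 95% interval -0.73 to -0.17, 1.37-fold, adjusted p = 0.0446), and the call was lost with scaling to the 75th percentile (-0.40, adjusted p = 0.0652) and with no filter on dim probes (adjusted p = 0.0562). A second probe of the gene differed by -0.32 (adjusted p = 0.0769), while a dim probe, the last of the gene, had a difference of 0.51 (adjusted p = 0.570). WT mice read 13.63, 13.74, 14.01 and 13.27 with veh and 13.55, 13.47, 13.39 and 13.28 with NR (difference -0.24, adjusted p = 0.718).

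**Figure D2:**
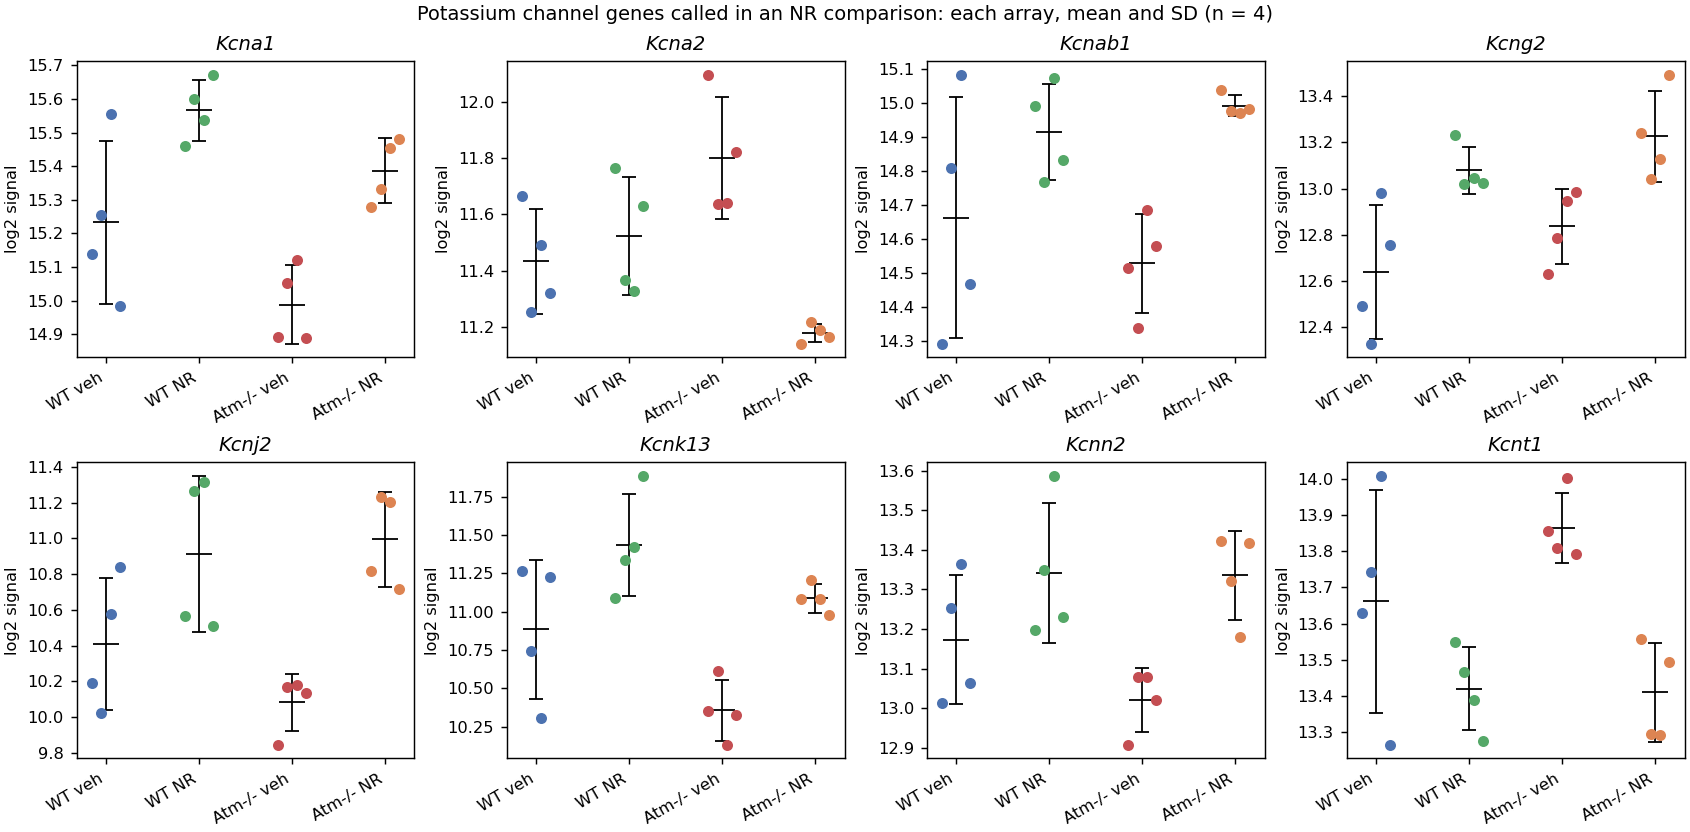
Log2 signal (vertical axis) of the 8 potassium channel genes whose brightest probe passed the test for NR in Atm-/- mice or over both genotypes; points are arrays, bars the mean and SD (n = 4) of each group. For Kcna2 the Atm-/- NR arrays (11.14 to 11.22) lie below all other groups, while Kcna1, Kcnab1, Kcng2, Kcnj2, Kcnk13 and Kcnn2 have higher and Kcnt1 lower means under NR in both genotypes.

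Kcnma1, the pore of the BK channel, shows how far a call can rest on the probe. Its 5 kept probes include 1 that was called, the dimmest of them, which read 10.43, 10.03, 9.95 and 10.62 in Atm-/- veh and 9.93, 9.59, 9.62 and 9.71 in Atm-/- NR (difference -0.55, adjusted p = 0.0484). There the groups barely parted, 9.93 in Atm-/- NR 1 lying just under 9.95 in Atm-/- veh 3. The 4 other probes differed by -0.09, -0.05, 0.01 and 0.06, and the brightest, which represents the gene, had an adjusted p of 0.664. Which exons the probes cover was not analysed here.

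**Figure D3:**
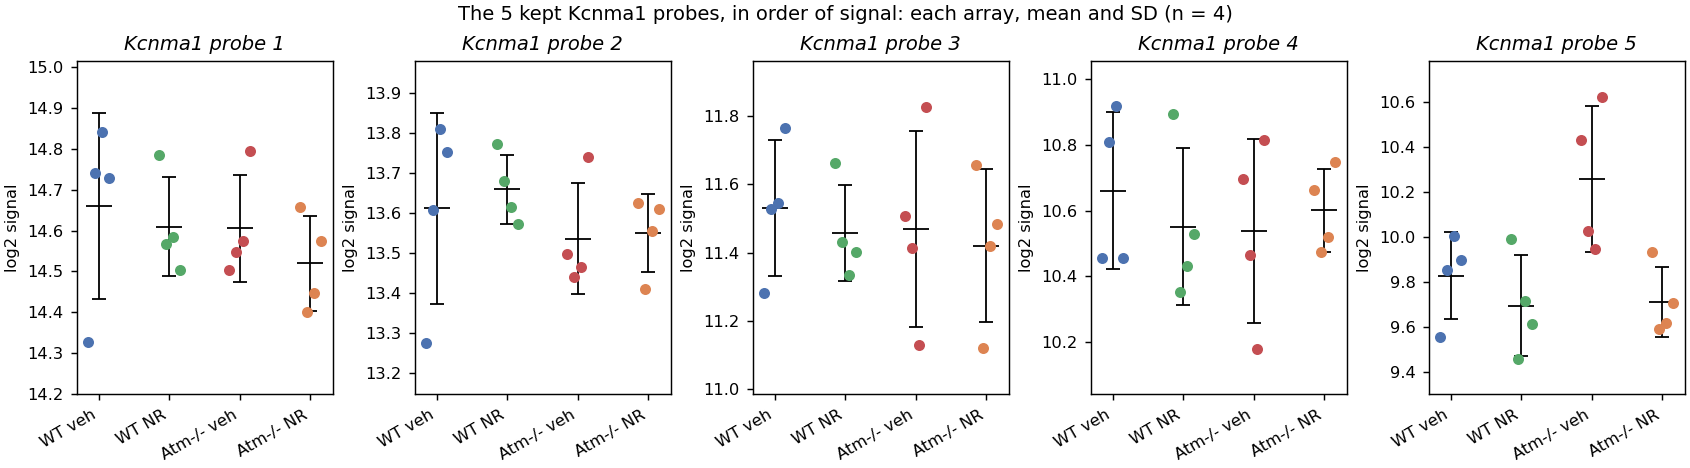
Log2 signal (vertical axis, own scale in each panel) of the 5 kept Kcnma1 probes from the brightest to the dimmest; points are arrays, bars the mean and SD (n = 4). The last panel, with Atm-/- veh from 9.95 to 10.62 and Atm-/- NR from 9.59 to 9.93, is the probe called, and in the other 4 the mean change is between -0.09 and 0.06.

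Several genes outside these calls were close to them or went the other way between probes. Kcnn2 (SK2, a calcium-activated channel that paces Purkinje cells) read 12.91, 13.08, 13.08 and 13.02 in Atm-/- veh and 13.42, 13.32, 13.18 and 13.42 in Atm-/- NR on its brightest probe, without overlap (difference 0.31, adjusted p = 0.0709). Its 2 dimmer probes differed by -0.20 and -0.29, so the probes of this gene disagree. The Kcnn genes had 3 of 4 higher with a median of 0.47, the Kv3 genes 1 of 4 higher with a median of -0.26, and the Kv7 genes 3 of 3 higher with a median of 0.16.

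Kcnc4 (Kv3.4) read 12.00, 12.00, 12.27 and 11.36 in Atm-/- veh and 11.19, 11.15, 11.36 and 11.19 in Atm-/- NR, the largest fall by value among the 68 at -0.68, and missed the threshold (adjusted p = 0.172). Kcnb2, lower in Atm-/- veh than in WT veh by value, read 5.58, 6.41, 6.42 and 5.90 in Atm-/- NR, above all 4 Atm-/- veh arrays (difference 0.92, adjusted p = 0.0637). These comparisons of Kcnb2 share the Atm-/- veh arrays.

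When the NR effect was averaged over both genotypes, 7 of 68 potassium channel genes passed (10.3%, beside 13.4% of all genes). The 6 that rose (8.82%, beside 7.44%) were Kcna1, Kcnj2, Kcnk13, Kcng2, Kcnab1 and Kcnn2, and the 1 that fell (1.47%, beside 5.94%) was Kcnt1. At an unadjusted p under 0.05, 18 genes (26.5%) and 31% of all genes differed. The changes were 0.37 for Kcna1 (adjusted p = 0.0128), 0.71 for Kcnj2 (0.0143), 0.64 for Kcnk13 (0.0162), 0.41 for Kcng2 (0.0197), 0.36 for Kcnab1 (0.0376), 0.24 for Kcnn2 (0.0492) and -0.35 for Kcnt1 (0.0300). This average uses the same arrays as the comparison within Atm-/- mice and is not a second experiment.

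Kcng2 (Kv6.2, a silent subunit that joins Kv2 channels) was called only in this average. It read 12.49, 12.33, 12.98 and 12.76 in WT veh and 13.23, 13.02, 13.04 and 13.02 in WT NR (difference 0.44, adjusted p = 0.522). The groups did not overlap, but they barely parted. In Atm-/- mice it read 12.63, 12.79, 12.95 and 12.98 with veh and 13.24, 13.04, 13.13 and 13.49 with NR (difference 0.39, adjusted p = 0.0923). Here too the groups did not overlap but lay close. Kcna2, the gene with the lowest adjusted p in Atm-/- mice, was not called in the average (-0.27, adjusted p = 0.0710), though it was with the replicate number as a block (adjusted p = 0.0454).

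How firmly each call held depended on the arrays. Without Atm-/- veh 3, the array with high blood markers, 3 of the 5 calls in Atm-/- mice were kept (Kcna1, Kcna2 and Kcnj2), where 8.12% of all genes were called. Each of the 16 arrays was left out in turn. Kcna2 passed in Atm-/- mice without any 1 of the 16 (changes from -0.67 to -0.52). Kcnj2 lost its call there when replicate 1 or 4 of Atm-/- veh, or replicate 2 or 3 of Atm-/- NR, was left out (adjusted p up to 0.0759). Kcna1 lost its call for those same arrays, and also without WT NR 3 or Atm-/- NR 4 (up to 0.108). Kcnk13 lost it without 10 of the 16 arrays (up to 0.0972), namely WT veh 2, WT NR 2, WT NR 3, Atm-/- veh 1, Atm-/- veh 3, Atm-/- veh 4 and each Atm-/- NR array. Kcnt1 lost it without 13 (up to 0.122), all but WT veh 3, WT veh 4 and Atm-/- NR 1, and the Kcnma1 probe without 10 (up to 0.132). For the average over both genotypes, Kcna1, Kcnj2, Kcnk13 and Kcng2 passed without any 1 array, Kcnt1 lost its call without 7, Kcnab1 without 12 and Kcnn2 without 14.

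On the 12 arrays with signal of Y-linked genes, 1 of the 5 calls in Atm-/- mice was kept, that of Kcnj2 (1.04, adjusted p = 0.0499), where 1.51% of all genes were called. The changes there were 0.41 for Kcna1 (adjusted p = 0.118), -0.67 for Kcna2 (0.0506), 0.69 for Kcnk13 (0.112) and -0.44 for Kcnt1 (0.151). The average over both genotypes kept Kcnj2 (0.96, adjusted p = 0.0212) and added Kcnj16, a glial inward rectifier subunit, where 6.57% of all genes were called. With the brainstem and deep nuclei markers in the model, which left 5.64% of all genes called, Kcna2 was the one of the 5 that kept its call (-0.57, adjusted p = 0.0438), and the others were 0.43 for Kcna1 (0.0628), 0.52 for Kcnk13 (0.133) and -0.30 for Kcnt1 (0.139), with Kcnj2 as given above.

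A small number of potassium channel genes varied far more between arrays of a group than the rest. The median SD within groups was 0.32 (log2) over the 68 potassium channel genes and 0.18 over all genes, and it was above 1 for 5 of the 68 (7.35%) beside 2.32% of all genes. These 5 were Kcne2 (2.33), Kcnc2 (1.96), Kcnj4 (1.87), Kcnh3 (1.13) and Kcnj13 (1.13), chosen here after their values were seen. Their high arrays are set beside markers of tissue other than the cerebellar cortex below.

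Kcne2 and Kcnj13 (Kir7.1) are subunits of channels of the choroid plexus epithelium, which makes cerebrospinal fluid. Kcne2 read 6.60, 4.96, 3.79 and 13.11 on the WT veh arrays, and between 3.08 and 7.16 on the other 12. Kcnj13 read 9.23, 8.99, 9.84 and 13.22 in WT veh, and between 7.73 and 9.76 on the other 12.

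Both were highest on WT veh 4, and on the other arrays Kcnj13 did not follow the choroid plexus markers: it was next highest on WT veh 3 and Atm-/- NR 3, where the mean of the list was -0.94 and -0.72. On that array Ttr, the abundant choroid plexus transthyretin, read 18.05, beside 7.13 to 12.62 on the other 15. Of the 12 choroid plexus markers 10 were measured (Kl and Sostdc1 were not), and their mean lay 4.02 above the mean of all arrays on WT veh 4 and between -0.94 and 0.50 on the rest. Kcne2 differed by -2.93 (adjusted p = 0.393) and Kcnj13 by -1.42 (adjusted p = 0.395) between Atm-/- veh and WT veh, and without WT veh 4 by -0.94 and -0.46.

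Kcnj4 (Kir2.3) and Kcnh3 (Kv12.2) are channels known from forebrain neurons. Kcnj4 read 7.46, 7.09, 7.82 and 13.94 in WT veh, and Kcnh3 read 9.43, 9.35, 9.90 and 13.83. WT veh 4 again held the high value of both. All 6 forebrain markers were measured, and their mean lay 2.87 above the mean of all arrays on WT veh 4 and 1.36 above on WT NR 3, where Kcnj4 was 10.69. Kcnj4 was also high on Atm-/- NR 2 and 3 (9.62 and 9.71) and on WT NR 2 (9.56). On these arrays it did not follow the forebrain markers, whose mean was 0.22, -0.21 and -0.48 in that order.

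Kcnc2 (Kv3.2) read 8.49, 5.77, 5.42 and 10.51 in WT veh, 6.24, 10.60, 10.87 and 9.38 in WT NR, 6.65, 6.75, 7.76 and 6.18 in Atm-/- veh and 6.53, 10.57, 10.34 and 7.05 in Atm-/- NR. Slc17a6, the vesicular glutamate transporter of deep nuclei and brainstem neurons, read 10.58, 5.91, 5.38 and 10.83, then 7.14, 12.47, 12.75 and 11.28, then 7.74, 6.80, 9.72 and 5.25, then 7.38, 12.41, 12.19 and 8.69 on the same arrays. The arrays with Kcnc2 above 9 were all among those with Slc17a6 above 10. Kcna4 (Kv1.4) was likewise highest on WT veh 4 (10.14), WT NR 2 and 3 (9.42 and 9.55) and Atm-/- NR 2 and 3 (9.13 and 9.43), and at most 8.28 on the other 11.

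Of the 8 markers of brainstem and deep nuclei 4 were measured, and Slc6a5, Hoxb5 and Hoxa5 were among those without a kept probe. The mean of the list ran from -1.02 to 0.77 in WT veh, -0.59 to 0.97 in WT NR, -1.01 to 0.13 in Atm-/- veh and -0.54 to 1.08 in Atm-/- NR. The SD of Slc17a6 within groups ran from 1.87 to 2.93, and those of the other measured markers from 0.09 to 0.80. The list mean and the covariate therefore follow mainly Slc17a6. Of the 4 markers, 2 were higher and 2 lower in WT NR than in WT veh. In Atm-/- NR against Atm-/- veh, 3 were higher and 1 lower, and 0 were called in either comparison. Kcnc2 differed by 1.79 between Atm-/- NR and Atm-/- veh (adjusted p = 0.387) and by 1.72 between WT NR and WT veh (adjusted p = 0.807), the largest rise by value in both, and neither passed. With the marker list in the model these became -0.43 and -0.16. The part of dissection in these values was not tested beyond this.

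**Figure D4:**
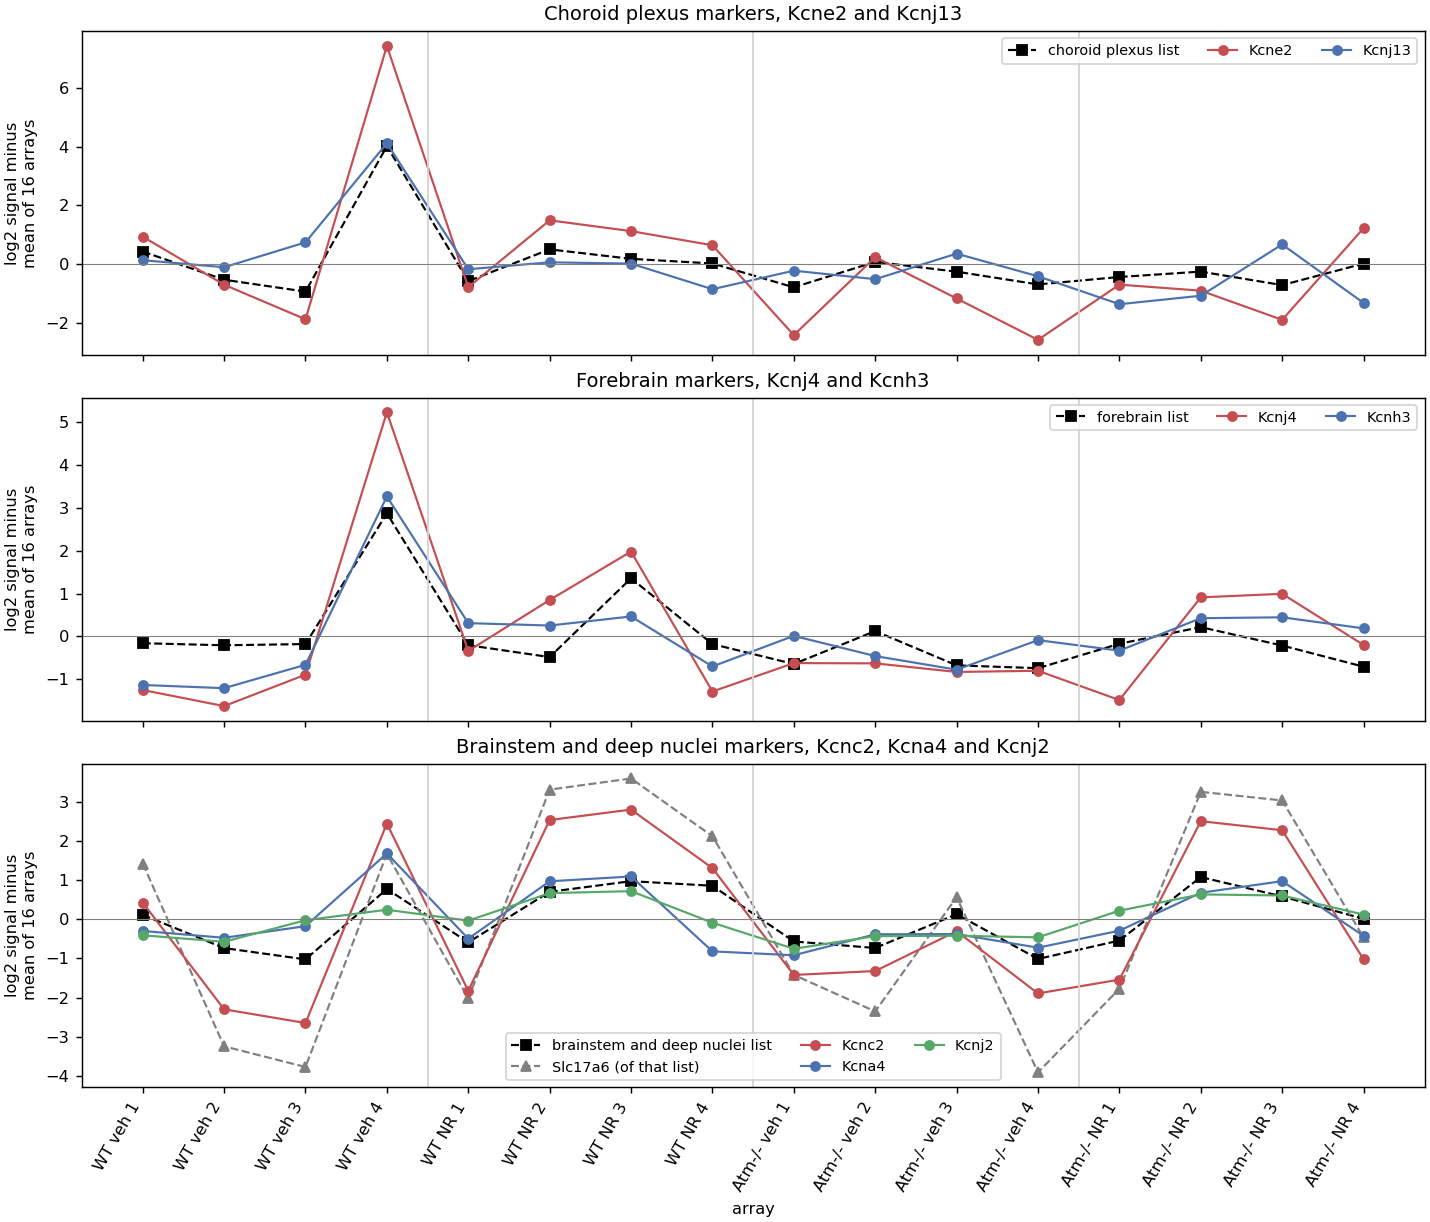
Log2 signal minus its mean over 16 arrays (vertical axis) on each array (horizontal axis, grey lines part the groups) for marker lists (dashed, squares) and potassium channel genes (solid, circles). Kcne2, Kcnj13, Kcnj4 and Kcnh3 peak on WT veh 4 with the choroid plexus and forebrain lists, and Kcnc2 and Kcna4 are high on WT veh 4 and on replicates 2 and 3 of both NR groups, where Slc17a6 is high.

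Proteins that bind potassium channels but fall outside the definition used here, the Kcnip genes among them, and related channels were followed as a list of 27. Of these, 25 were measured (Kcnip2 and Lrrc52 had no kept probe). Between Atm-/- NR and Atm-/- veh, 2 of the 25 passed, 1 in each direction, a share below the 11.5% of all genes, with 13 higher and 12 lower and a median change of 0.03 beside 0.04 over all genes. Dpp6, an auxiliary subunit that speeds Kv4 channels, fell by 0.55 (SE 0.10, adjusted p = 0.0117). Neither Kcnd2 (0.26, adjusted p = 0.261) nor Kcnd3 (-0.20, adjusted p = 0.294), the Kv4 pores, passed in this comparison. Over both genotypes Dpp6 fell by 0.34 (adjusted p = 0.0133), and none of the 25 was called in the comparisons other than these NR ones.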

How the data were processed

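Cy3-labelled RNA of mouse cerebellum was hybridised to 16 Agilent arrays, 4 per group, with groups and replicate numbers taken from the sample labels. The labels give 1 mouse per array, so the p-values measure the spread between mice and arrays together. The scanner files deposited by the authors come from Agilent Feature Extraction 12.0.3.1 and hold an intensity for each of 62976 spots (3671 of them controls), corrected for local background but with no normalization from array to array. Scores (z-scores) deposited by the authors for the same spots served as an alternative. No spot was saturated.

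Probes were named through their accessions with RefSeq genes of assembly GRCm38.p6 (32994 of 56605 probes, 58.3%), used for names and promoters only. Detection of a probe required that 0.5 or more of its spots be well above background, and 38041 probes were detected on each of the 4 arrays of some group. Spots flagged as outliers in the scanner files were then left out. The 37253 probes that still had a value on every array were kept. Values are the log2 of the deposited intensity, quantile normalized between arrays. The brightest kept probe stood for its gene, and 27 potassium channel genes had several.

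Differences were tested, two-sided, with limma 3.58.1 in R 4.3.3 (data.table version 1.17.8), fitting 4 group means to 16 arrays (12 residual degrees of freedom). The threshold was an adjusted p of 0.05 (Benjamini-Hochberg, over all kept probes). There were 7 comparisons: 4 between pairs of groups, the NR change in Atm-/- minus that in WT mice, and the averages of the genotype and of the NR effect. The code was tested on simulated data with known answers. The number of arrays limits the precision. To give a marker list a value on an array, each gene's log2 signal was centred on its mean over 16 arrays and the list's genes were averaged.

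Genes were named by a rule: every potassium channel gene with a called probe, the 4 largest rises and the 4 largest falls in each comparison between groups, and a list of genes known in the cerebellum; genes named for their spread or their probes, or for not overlapping, were picked with their values in view. The genes, lists and tests were chosen with earlier results of these data known. Alternatives were scaling to the 75th percentile, normexp background correction (offset 50), the deposited z-scores, the filter on dim probes, leaving out arrays, the replicate number as a block, the groups compared alone, arrays with Y-linked signal, any probe of a gene, and the methods' rule and the methods' t-test. A marker list as a covariate was added after seeing the data. Replicate numbers were compared by the correlation of same-numbered arrays' deviations from their group means, which ran from -0.33 to 0.37 (median -0.02), and for arrays of different numbers from -0.33 to 0.45. The numbers were therefore not taken to pair the mice. Some genes that belong to the lists used are counted in them but not reported by name here.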

Additional observations from a re-analysis of the deposited data

Results flagged for a closer look

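In 9 of 144 groups of 4 arrays, over 36 named potassium channel genes, 1 array lay far from the other 3 by Dixon's ratio, which chance does in about 1 in 20 groups. All values are log2 signals.

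Kcnj4 was 13.94 on WT veh 4 and 7.09 to 7.82 on the other WT veh arrays. Kcnj13 was 9.76 on Atm-/- NR 3 and 7.73 to 8.01 on the other Atm-/- NR arrays. Kcnj2 was 9.85 on Atm-/- veh 1 and 10.14 to 10.18 on the other Atm-/- veh arrays, and its call in Atm-/- mice was lost without that array. Kcng2 was 13.23 on WT NR 1 and 13.02 to 13.04 on the other WT NR arrays.

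Kcnk1 was 12.84 on WT veh 1 and 13.82 to 13.89 on the other WT veh arrays. Kcnab3, a Kv beta subunit, was 12.57 on WT NR 3 and 11.81 to 11.87 on the other WT NR arrays. Kcnh4, of the EAG family, was 10.17 on WT NR 2 and 10.71 to 10.77 on the other WT NR arrays. Kcne4 was 4.49 on Atm-/- NR 1 and 5.33 to 5.43 on the other Atm-/- NR arrays, and Kcnk16 was 7.06 on Atm-/- NR 4 and 6.56 to 6.58 on the others.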

How the results depend on the processing

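The count of 5 potassium channel genes called in Atm-/- NR against Atm-/- veh (11.5% of all genes) became 3 with no filter on dim probes (8.25%), 9 with only the arrays of the groups compared (9.07%), 1 with only the arrays with Y-linked signal (1.51%), 9 by the methods' t-test after Benjamini-Hochberg adjustment (12.5%) and 3 with the brainstem and deep nuclei markers as a covariate (Kcna2, Kcnd2 and Kcnmb4, beside 5.64%). The 7 called for NR over both genotypes (13.4% of all genes) became 2 on the arrays with Y-linked signal (6.57%). Leaving out 1 array gave between 1 and 8 calls in Atm-/- mice and between 4 and 9 over both genotypes, beside 3.01% to 15.1% and 7.53% to 15.4% of all genes. In Atm-/- mice there were 8 without WT veh 4, 3 without WT veh 2, WT NR 2 or Atm-/- veh 3, 2 without WT NR 3 or Atm-/- NR 4, and 1 without Atm-/- veh 1, Atm-/- veh 4, Atm-/- NR 2 or Atm-/- NR 3. Over both genotypes there were 4 without WT NR 3, WT NR 4, Atm-/- veh 1, Atm-/- NR 2 or Atm-/- NR 3. The cause was not tested.

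The methods' rule (a z-ratio of at least 1.5 and a false discovery rate of at most 0.3, among other terms) called 2 potassium channel genes in Atm-/- veh against WT veh (Kcnb2 and Kcnh6, beside 1.76% of all genes), 1 in WT NR against WT veh (Kcng2, 1.11%) and 4 in Atm-/- NR against Atm-/- veh (2.32%). Kcnb2, Kcnj2 and Kcnk13 were among these 4, all of them higher, while Kcna1, Kcna2 and Kcnt1 were not called by this rule. With the replicate number as a block, Kcnt1 lost its call in Atm-/- NR against Atm-/- veh (limma adjusted p = 0.0528). For NR over both genotypes, Kcna2 was gained (0.0454) and Kcnn2 lost (0.0602) under that model.

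Values that changed sign, none of them called, were these. Without WT veh 4, Kcne2 in WT NR against WT veh was 1.17 (-0.83 with all arrays, down to -1.94 without another) and Kcnj4 in Atm-/- veh against WT veh was 0.54 (-1.09, down to -1.75). Without Atm-/- NR 1, Kcnc2 in Atm-/- NR against WT NR was 0.050 (-0.65, down to -1.66). On the arrays with Y-linked signal, Kcna10 was -0.028 in Atm-/- NR against WT NR (0.47) and 0.070 in WT NR against WT veh (-0.49), and Kcna2 was -0.086 in WT NR against WT veh (0.09). With the markers as a covariate, Kcnc2 was -0.43 in Atm-/- NR against Atm-/- veh (1.79) and -0.16 in WT NR against WT veh (1.72), and Kcne2 was -0.65 in Atm-/- NR against Atm-/- veh (0.91). Genes near background, such as Kcne2, Kcne4 and Kcna10, were above it on only some arrays.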
